A study of Mus musculus with 8 samples.

Results

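The 10 genes followed here encode chemokines, a macrophage growth factor, a soluble pattern recognition protein and an alarmin, and they were measured in mouse malignant peripheral nerve sheath tumor (MPNST) cells. They are the chemokine genes *Ccl2*, *Ccl7*, *Cxcl1*, *Cxcl5*, *Cxcl12*, *Cxcl16* and *Cx3cl1*, the macrophage growth factor gene *Csf1*, the pentraxin gene *Ptx3* and the alarmin gene *Il33*, and they make up 10 of the 50600 genes in the count table. The genes were chosen by symbol, with earlier results of these data known. *Csf1* and *Ptx3* were selected on their measured values, because their response to capmatinib had been seen to differ between the cell lines. All values of these 2 genes are therefore given as a description without a test, and tests are given for the other 8.

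RNA-seq was performed on the NF1-MET line and on NF1-MET;sgP53, a derivative in which *Trp53* was targeted by CRISPR-Cas9, and the comparison was designed to show how p53 loss changes the transcriptional response to MET inhibition. Each line received vehicle (DMSO) or 100 nM of capmatinib, a MET kinase inhibitor, for 24 h, and each of the 4 groups had 2 libraries. NF1-MET cells came from an MPNST of a mouse with a floxed and a null *Nf1* allele, a *MET* transgene behind a lox-stop-lox cassette and an inducible Cre of the glial lineage. The line carries *Met* amplification and has lost *Cdkn2a*, and all 4 groups share these changes. With 1 cell line for each *Trp53* genotype, p53 loss cannot be told apart from other ways in which the lines differ. The NF1-MET columns of the table carry the letters EV, and whether those libraries came from the empty-vector control that the study also made is not given in the sources used here. The replicates were described as duplicate treatments in plate wells, so p-values measure the spread between these cultures.

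Chemokines are small secreted proteins that guide leukocytes through G protein-coupled receptors. CCL2 and CCL7 attract monocytes through CCR2, CXCL1 and CXCL5 attract neutrophils through CXCR2, and CXCL12 acts through CXCR4 and the scavenging receptor ACKR3. CX3CL1 and CXCL16 are made as membrane proteins and can be shed by metalloproteases. CSF1 keeps macrophages alive through its receptor CSF1R, PTX3 is a soluble pattern recognition protein that also binds matrix, and IL-33 signals through ST2, the product of *Il1rl1*. Macrophages are common in nerve sheath tumors, and several of these genes are known targets of NF-κB.

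Promoter sequences of *Csf1*, *Ptx3* and *Cxcl1* are shown because NF-κB target genes moved in the same libraries, as described further on. Of the windows found, both with a κB match are among those printed. The windows of *Cxcl12*, *Cx3cl1* and *Il33*, which held none, are not printed. Whether NF-κB had a part in any change was not tested. Windows of 250 bases that end at the RefSeq start of the gene (GRCm38.p6) were found for 6 of the 10 genes, namely *Csf1*, *Ptx3*, *Cxcl1*, *Cxcl12*, *Cx3cl1* and *Il33*. The windows of *Csf1* (chr3:107760470-107760719, minus strand), *Ptx3* (chr3:66219637-66219886, plus strand) and *Cxcl1* (chr5:90890995-90891244, plus strand) read 5′ to 3′ as follows, with matches to the κB consensus in capitals.
Csf1: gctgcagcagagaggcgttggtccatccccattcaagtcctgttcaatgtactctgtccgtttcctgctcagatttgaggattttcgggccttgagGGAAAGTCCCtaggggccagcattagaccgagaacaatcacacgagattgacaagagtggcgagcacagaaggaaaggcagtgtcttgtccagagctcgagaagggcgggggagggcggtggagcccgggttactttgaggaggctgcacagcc
Ptx3: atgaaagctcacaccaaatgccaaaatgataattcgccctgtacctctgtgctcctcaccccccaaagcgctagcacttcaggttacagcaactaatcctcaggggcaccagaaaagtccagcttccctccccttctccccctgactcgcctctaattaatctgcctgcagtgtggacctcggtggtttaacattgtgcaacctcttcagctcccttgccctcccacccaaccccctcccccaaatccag
Cxcl1: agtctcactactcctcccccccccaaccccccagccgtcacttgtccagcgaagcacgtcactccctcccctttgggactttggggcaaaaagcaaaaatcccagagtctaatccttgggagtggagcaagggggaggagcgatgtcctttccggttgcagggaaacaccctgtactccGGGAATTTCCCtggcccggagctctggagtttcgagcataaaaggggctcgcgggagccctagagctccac
The *Csf1* window held 1 match, GGGACTTTCC on the opposite strand from position -154, counted from the start of the gene. The *Cxcl1* window held overlapping matches on both strands, from positions -71 and -70, and the windows of *Ptx3*, *Cxcl12*, *Cx3cl1* and *Il33* held none. A κB consensus was present on either strand in 7.25% of 32851 mouse promoter windows of the same length. The AP-1 motif TGANTCA, which 6.75% of all windows contained, and the p53 half-site, which 7.13% contained, were not found in the windows of these 6 genes. A match describes the letters of the window and is not evidence of binding.

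In the annotation of the same assembly (mm10), *Csf1* lies at chr3:107741048-107760469 on the minus strand and *Ptx3* at chr3:66219910-66225805 on the plus strand. *Ccl2* (chr11:82035571-82037453) and *Ccl7* (chr11:82045712-82047525) are neighbours with 8258 bases between them, and *Cxcl5* (chr5:90759360-90761624) lies 129616 bases from *Cxcl1* (chr5:90891241-90893115). *Cxcl12* is at chr6:117168535-117181367, *Cxcl16* at chr11:70453983-70459984, *Cx3cl1* at chr8:94772009-94782427 and *Il33* at chr19:29925114-29960718. All 10 are protein-coding, and the counts cover all of their annotated exons without separating isoforms. Only *Cxcl16* shares exon sequence with another gene, 552 bases with *Zmynd15* on the opposite strand, and *Zmynd15* had 18 counts in all 8 libraries together.

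The libraries held between 30.1 M and 42.8 M counts. *Trp53*, the targeted gene, was at 188 CPM (counts-per-million, scaled with TMM) ± 7.70 in NF1-MET vehicle and 127 ± 2.02 in NF1-MET capmatinib, against 98.8 ± 1.82 and 68.4 ± 0.556 in the same treatments of NF1-MET;sgP53 (SD, n = 2), so its transcript was lower in NF1-MET;sgP53 but present. Among markers of the Schwann lineage and neural crest, *Vim* (4709 to 5695 CPM), *Nes* (427 to 473), *Twist1* (41.1 to 46.2) and *Sox9* (16.0 to 66.0) were expressed in every library, and *Sox10* had 7 counts or fewer. *Sox9* was lower with capmatinib in both lines (log2 fold change -2.02 ± 0.05 and -1.45 ± 0.05, edgeR adjusted p = 2.44e-26 and 9.89e-17), and its part in the results was not tested. The leukocyte and macrophage markers summed to 5.28 to 11.0 CPM, of which *Cd14* made up 4.11 to 10.7 and *Csf1r* most of the rest, and *Adgre1* and *Itgam* had 0 counts in every library. With library totals in place of TMM factors the median over all genes shifted for capmatinib, to a log2 fold change of -0.18 in NF1-MET or -0.12 in NF1-MET;sgP53. The genes called with capmatinib in NF1-MET then numbered 3508 higher and 6381 lower (5140 and 5029 with TMM), and in NF1-MET;sgP53 they numbered 3260 and 4933 (4963 and 4841 with TMM). Between the lines they numbered 1280 higher and 743 lower in vehicle (1580 and 1775 with TMM) and 537 and 129 in capmatinib (860 and 918 with TMM), and for the interaction 192 and 123 (558 and 849 with TMM). *Gm42418*, which overlaps ribosomal RNA sequence, took 1.11% to 13.1% of the counts, and without it and the genes moving with it the interaction calls numbered 918 higher and 658 lower. All of these cultures are bulk samples, in which fewer cells making a transcript and less transcript per cell cannot be told apart.

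Per length, *Csf1* was the most highly expressed of the 10 genes in every group, from 56.8 RPKM in NF1-MET vehicle to 149 RPKM in NF1-MET;sgP53 capmatinib. In NF1-MET vehicle it was followed by *Cx3cl1* (18.6 RPKM), *Cxcl12* (14.1), *Ccl2* (10.5), *Ccl7* (3.56) and *Ptx3* (0.858), with *Il33*, *Cxcl1*, *Cxcl5* and *Cxcl16* below 0.5 RPKM. In both capmatinib groups *Ptx3* stood second, at 44.5 RPKM in NF1-MET and 54.2 RPKM in NF1-MET;sgP53, ahead of *Cxcl12* at 33.5 and 40.0 RPKM. *Il33* was lowest under capmatinib in either line. Neighbours in this order had overlapping libraries only for *Cxcl5* and *Cxcl16* in NF1-MET vehicle and for *Ccl7* and *Cx3cl1* in NF1-MET;sgP53 capmatinib.

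**Figure D1:**
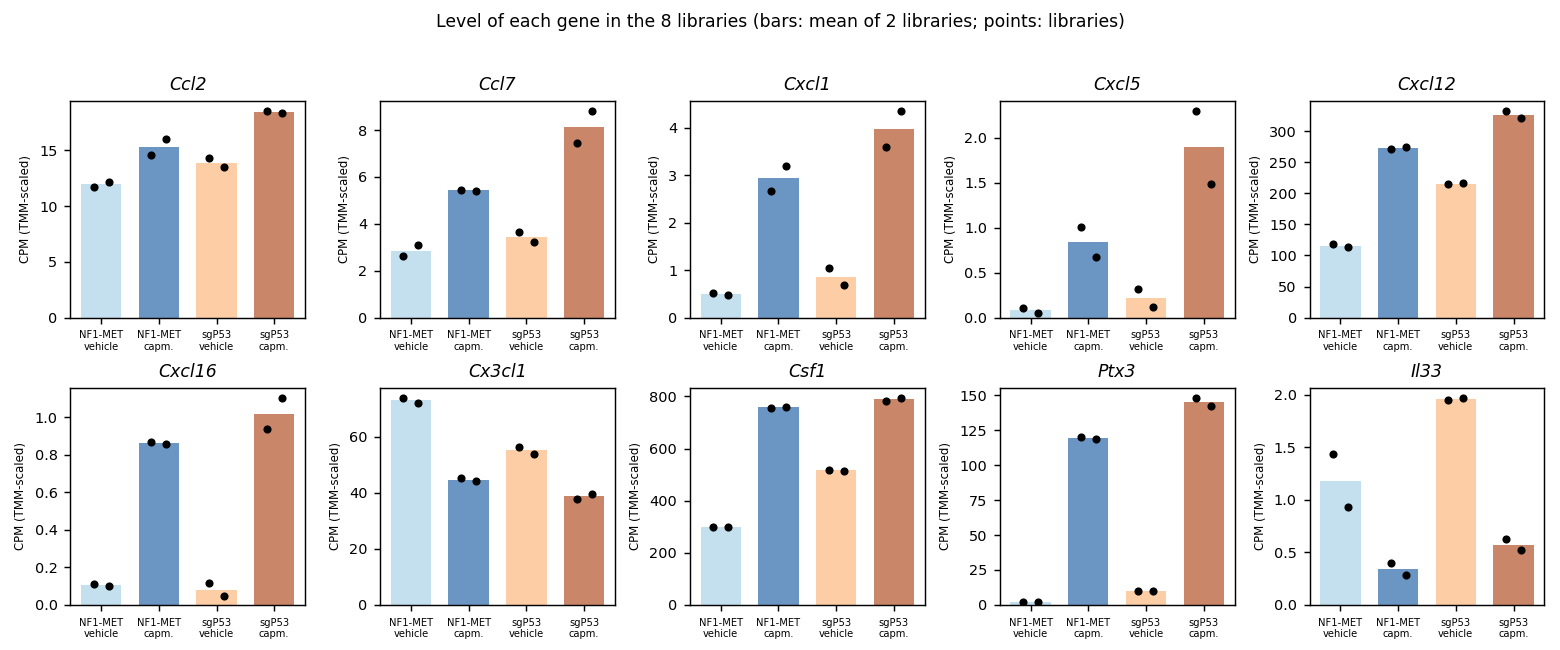
Expression of the 10 genes in TMM-scaled CPM (vertical axes, linear from 0) in the 4 groups (NF1-MET and NF1-MET;sgP53, the latter written sgP53, with vehicle or capmatinib, written capm.). Bars are means of 2 libraries and points are the libraries. *Csf1* stood at 300.0 and 516 CPM in the vehicle groups and at 758 and 788 CPM in the capmatinib groups, whereas *Cx3cl1* and *Il33* were lower with capmatinib in each line.

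*Csf1* and *Ptx3* were both higher with capmatinib and higher in NF1-MET;sgP53. *Csf1*, the growth factor of macrophages, was at 299.6 and 300.4 CPM in the NF1-MET vehicle libraries and at 757 and 759 CPM in the NF1-MET capmatinib libraries. In NF1-MET;sgP53 its values were 519 and 514 CPM in vehicle and 784 and 793 CPM in capmatinib. The 4 groups did not overlap, the vehicle groups lay far apart and the capmatinib groups close together. The log2 fold change with capmatinib was 1.32 ± 0.02 (SE) in NF1-MET against 0.61 ± 0.03 in NF1-MET;sgP53. The difference between these values, which selected the gene, was -0.73 ± 0.03. With library totals in place of TMM factors these were 1.14 ± 0.06, 0.49 ± 0.11 and -0.65 ± 0.11 in the same order. Leaving out *Gm42418* and the genes moving with it gave a difference of -0.69 ± 0.03. In CPM, *Csf1* was higher with capmatinib by 458 ± 1.13 (SE) in NF1-MET and by 272 ± 5.40 in NF1-MET;sgP53. Averaged over the lines, *Csf1* was 1.96-fold higher with capmatinib (log2 fold change 0.97 ± 0.02), and averaged over the treatments it was 1.34-fold higher in NF1-MET;sgP53 (log2 fold change 0.42 ± 0.02).

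*Ptx3* had the largest fold change with capmatinib of the 10 genes in NF1-MET, while the ratio of the sparse *Cxcl16* counts was close to it in NF1-MET;sgP53. It was at 2.40 and 2.21 CPM in NF1-MET vehicle, from 87 and 88 counts, and at 120 and 119 CPM in NF1-MET capmatinib. In NF1-MET;sgP53 the values were 9.63 and 9.90 CPM in vehicle and 148 and 143 CPM in capmatinib. No groups overlapped, and the lines lay further apart, as a ratio, in vehicle than in capmatinib. The fold change was 51.2 in NF1-MET (log2 fold change 5.68 ± 0.06) and 14.9 in NF1-MET;sgP53 (log2 fold change 3.89 ± 0.04). The log2 difference of -1.80 ± 0.09 selected the gene. Library totals in place of TMM factors gave log2 fold changes of 5.49 ± 0.10 and 3.77 ± 0.12 in the same order. The order of the lines depended on the scale, since the difference in CPM was 117 ± 0.682 (SE) in NF1-MET against 136 ± 2.74 in NF1-MET;sgP53. In vehicle the log2 fold change of NF1-MET;sgP53 against NF1-MET was 2.07 ± 0.12 for *Ptx3* and 0.76 ± 0.02 for *Csf1*, and in capmatinib it was 0.29 ± 0.03 and 0.06 ± 0.02. With library totals in place of TMM factors the values in capmatinib were 0.40 ± 0.10 for *Ptx3* and 0.17 ± 0.10 for *Csf1*. In vehicle the *Csf1* value was then 0.82 ± 0.07. Averaged over the lines, *Ptx3* was 27.8-fold higher with capmatinib (log2 fold change 4.79 ± 0.03), and averaged over the treatments it was 2.28-fold higher in NF1-MET;sgP53 (log2 fold change 1.19 ± 0.04).

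The 8 genes tested were all called for capmatinib averaged over the lines by edgeR's quasi-likelihood test, 6 higher and 2 lower, where 76.5% of all genes tested were called in either direction. The 6 higher include *Cxcl5* and *Cxcl16*, which reached 10 counts in 1 and 0 of the 4 vehicle libraries and in all 4 capmatinib libraries, so that they passed the filter of 10 counts in 2 libraries through the group where they are high, and their calls add nothing to the count. For the line averaged over the treatments 7 were called, 6 of them higher in NF1-MET;sgP53 and *Cx3cl1* lower, where 24.8% of all genes were called. Between 4 and 7 were called when a single library was left out, and the calls of *Cxcl1*, *Cxcl5* and *Il33* were those lost. For *Cxcl1* the log2 fold change of 0.59 ± 0.18 lost its call without NF1-MET vehicle replicate 2, NF1-MET capmatinib replicate 1, NF1-MET;sgP53 vehicle replicate 1 or NF1-MET;sgP53 capmatinib replicate 2 (0.43 to 0.56). For *Cxcl5* the value of 1.28 ± 0.41 did so without NF1-MET vehicle replicate 2, NF1-MET capmatinib replicate 2 or replicate 1 of either NF1-MET;sgP53 group (0.87 to 1.13). For *Il33* the value of 0.76 ± 0.24 did so without replicate 2 of either NF1-MET group or NF1-MET;sgP53 capmatinib replicate 1 (0.61 to 0.69) and in DESeq2 (0.76 ± 0.31, adjusted p = 0.0734).

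The same 8 genes were tested with capmatinib in each line. Of these, 6 were called higher and 2 lower in NF1-MET, where 35.5% of all genes tested were called higher and 34.7% lower, and the same was true in NF1-MET;sgP53, where the shares were 34.2% and 33.4%. In each line 5 of them changed at least 2-fold, as did 16.8% (NF1-MET) or 15.4% (NF1-MET;sgP53) of all genes. *Cxcl5* and *Cxcl16*, which had to differ to be tested at all, are among these 5 and among the 6. The other 8 of the 10 genes had at least 10 counts in all 8 libraries.

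Of the monocyte attractants, *Ccl7* changed more than its neighbour *Ccl2*. *Ccl7* was at 2.62 and 3.08 CPM in NF1-MET vehicle, 5.46 and 5.42 in NF1-MET capmatinib and, in NF1-MET;sgP53, 3.64 and 3.23 with vehicle and 7.46 and 8.82 with capmatinib. Vehicle and capmatinib libraries did not overlap in either line, and *Ccl7* rose 1.88-fold in NF1-MET (log2 fold change 0.91 ± 0.14, edgeR adjusted p = 7.30e-07) and 2.38-fold in NF1-MET;sgP53 (1.25 ± 0.12, edgeR adjusted p = 5.16e-09). *Ccl2* was at 11.8 and 12.1 CPM in NF1-MET vehicle, 14.6 and 16.0 in NF1-MET capmatinib and, in NF1-MET;sgP53, 14.3 and 13.5 with vehicle and 18.6 and 18.4 with capmatinib. It rose 1.27-fold in NF1-MET (log2 fold change 0.35 ± 0.08, edgeR adjusted p = 0.000169) and 1.33-fold in NF1-MET;sgP53 (0.41 ± 0.07, edgeR adjusted p = 1.99e-05). With library totals the value in NF1-MET was 0.16 ± 0.09 and the call was lost (edgeR adjusted p = 0.118).

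The neutrophil attractants *Cxcl1* and *Cxcl5* rose from low levels in both lines. *Cxcl1* was at 0.523 and 0.476 CPM in NF1-MET vehicle (19 counts in each library), 2.67 and 3.20 in NF1-MET capmatinib and, in NF1-MET;sgP53, 1.05 and 0.679 with vehicle and 3.60 and 4.35 with capmatinib. The treatments did not overlap, and the rise was 5.85-fold in NF1-MET (log2 fold change 2.55 ± 0.25, edgeR adjusted p = 8.48e-11) and 4.69-fold in NF1-MET;sgP53 (2.23 ± 0.22, edgeR adjusted p = 7.30e-09). *Cxcl5* had 4 and 2 counts in NF1-MET vehicle, 28 and 26 in NF1-MET capmatinib and, in NF1-MET;sgP53, 11 and 5 with vehicle and 81 and 54 with capmatinib. From the summed counts its ratio of capmatinib to vehicle was 10.4 in NF1-MET (95% exact interval 4.47 to 29.5) and 9.09 in NF1-MET;sgP53 (5.40 to 16.4), where the intervals cover counting error only. Its fitted log2 fold changes of 3.31 in NF1-MET and 3.16 in the derivative line moved with single vehicle libraries, and the first became 3.93 without vehicle replicate 1, and the second 3.98 without vehicle replicate 1 and 2.55 without vehicle replicate 2.

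*Cxcl16*, which encodes a transmembrane chemokine and scavenger receptor, was nearly at background without the drug. It had 4 counts in each NF1-MET vehicle library, 24 and 33 in NF1-MET capmatinib and, in NF1-MET;sgP53, 4 and 2 with vehicle and 33 and 40 with capmatinib. All capmatinib libraries lay above all vehicle libraries, with ratios of 8.21 in NF1-MET (95% exact interval 3.90 to 19.9) and 13.1 in NF1-MET;sgP53 (5.74 to 36.9). The fitted log2 fold change in the latter was 3.65 and ranged from 3.09 to 4.35 with a library left out, the highest without vehicle replicate 1, so its order against *Ptx3* (3.89) is not settled there. The other transmembrane chemokine moved in the opposite direction. *Cx3cl1*, which encodes fractalkine, was at 73.8 and 72.2 CPM in NF1-MET vehicle, 45.2 and 44.1 in NF1-MET capmatinib and, in NF1-MET;sgP53, 56.4 and 53.8 with vehicle and 37.7 and 39.6 with capmatinib. The 4 groups did not overlap, and *Cx3cl1* fell with capmatinib in NF1-MET (log2 fold change -0.73 ± 0.04, edgeR adjusted p = 2.36e-17) and in NF1-MET;sgP53 (-0.51 ± 0.04, edgeR adjusted p = 5.13e-10).

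*Cxcl12*, the homeostatic stromal chemokine, followed the pattern of *Csf1*. It was at 118 and 113 CPM in NF1-MET vehicle, 272 and 275 in NF1-MET capmatinib and, in NF1-MET;sgP53, 214 and 216 with vehicle and 333 and 321 with capmatinib. The groups did not overlap, and the gap between the lines was wider in vehicle than in capmatinib on the log2 scale and in CPM. *Cxcl12* rose 2.34-fold with capmatinib in NF1-MET (log2 fold change 1.23 ± 0.03, edgeR adjusted p = 1.28e-27) and 1.52-fold in NF1-MET;sgP53 (0.60 ± 0.03, edgeR adjusted p = 8.51e-14). The rise in CPM was 158 ± 2.86 (SE) in NF1-MET against 111 ± 6.11 in NF1-MET;sgP53.

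*Il33*, which encodes a nuclear alarmin of the IL-1 family, was low and fell with capmatinib. It had 52 and 37 counts in NF1-MET vehicle, 11 in each NF1-MET capmatinib library and, in NF1-MET;sgP53, 67 and 84 with vehicle and 22 and 19 with capmatinib. The treatments did not overlap in either line, and expression was 3.52-fold lower in NF1-MET (log2 fold change -1.82 ± 0.37, edgeR adjusted p = 5.60e-05) and 3.40-fold lower in NF1-MET;sgP53 (-1.77 ± 0.27, edgeR adjusted p = 6.05e-06).

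**Figure D2:**
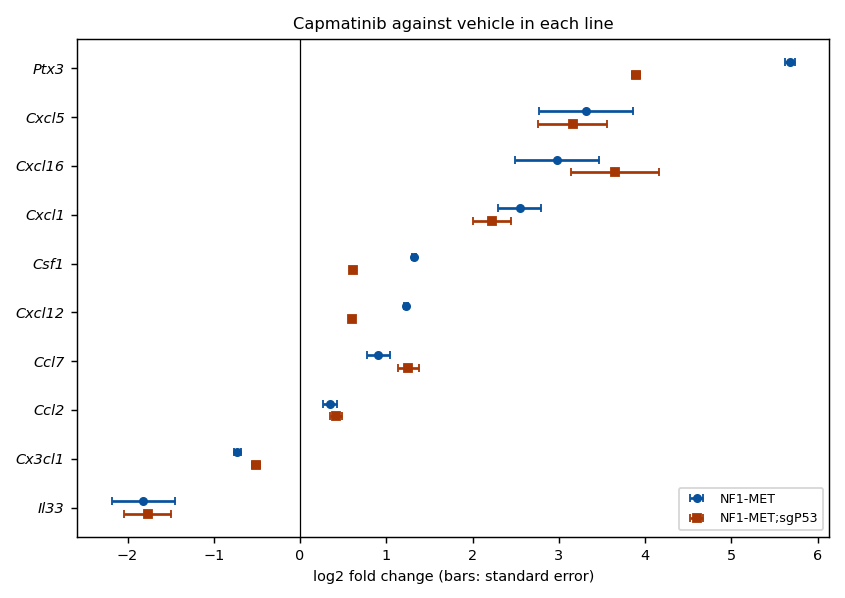
Log2 fold change of capmatinib against vehicle (horizontal axis) for each gene in NF1-MET (circles) and NF1-MET;sgP53 (squares), with standard errors as bars. Of the 10 genes, 8 lie to the right of 0, and *Cx3cl1* and *Il33* to the left in both lines, and the lines are furthest apart for *Ptx3* (5.68 and 3.89).

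Between the lines, fewer of the tested genes differed. In vehicle, 2 of 8 were higher in NF1-MET;sgP53, where 10.9% of all genes were called higher, and 1 was lower, where 12.3% were. *Cxcl12* was 1.84-fold higher (log2 fold change 0.88 ± 0.03, edgeR adjusted p = 1.08e-14), *Cx3cl1* was lower (-0.43 ± 0.04, edgeR adjusted p = 1.52e-08), and *Il33* was 1.65-fold higher (0.72 ± 0.23, edgeR adjusted p = 0.0304). The *Il33* call was lost without NF1-MET vehicle replicate 2 (0.43 ± 0.28), without NF1-MET;sgP53 vehicle replicate 1 (0.73 ± 0.27) or replicate 2 (0.71 ± 0.29), and in DESeq2 (0.72 ± 0.35, adjusted p = 0.175). *Ccl2* (0.19 ± 0.07), *Ccl7* (0.24 ± 0.15), *Cxcl1* (0.74 ± 0.35), *Cxcl5* (1.35 ± 0.74) and *Cxcl16* (-0.43 ± 0.80) did not pass the test, although *Ccl2* did so in a single model of all 8 libraries (0.21 ± 0.07, edgeR adjusted p = 0.0340). The *Cxcl5* value ranged from 0.53, without NF1-MET;sgP53 vehicle replicate 1, to 1.97, without NF1-MET vehicle replicate 1.

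In capmatinib, 4 of the 8 genes were higher in NF1-MET;sgP53, where 5.94% of all genes were called higher, and 1 was lower, where 6.34% were. *Ccl7* was 1.50-fold higher (log2 fold change 0.58 ± 0.11, edgeR adjusted p = 0.00157) and *Cxcl12* 1.19-fold higher (0.26 ± 0.03, edgeR adjusted p = 4.94e-06). *Ccl2* was 1.20-fold higher (0.27 ± 0.07, edgeR adjusted p = 0.0143), a call lost without NF1-MET capmatinib replicate 1 (0.21 ± 0.08) and in DESeq2 (adjusted p = 0.150). *Cxcl5* was higher by 1.20 ± 0.29 on the log2 scale (edgeR adjusted p = 0.00994), a call lost without NF1-MET capmatinib replicate 2 (0.90 ± 0.35), without NF1-MET;sgP53 capmatinib replicate 1 (0.85 ± 0.35) and in DESeq2 (adjusted p = 0.0555). *Cx3cl1* was lower by -0.20 ± 0.04 (edgeR adjusted p = 0.00445), a call lost with library totals (-0.09 ± 0.10) and in DESeq2 (adjusted p = 0.0614). *Cxcl1* (0.42 ± 0.16, edgeR adjusted p = 0.0994), *Cxcl16* (0.24 ± 0.29) and *Il33* (0.77 ± 0.42) did not pass the test, although *Cxcl1* did so with library totals (0.54 ± 0.18, edgeR adjusted p = 0.0443) and without NF1-MET;sgP53 capmatinib replicate 1 (0.55 ± 0.19, edgeR adjusted p = 0.0315).

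**Figure D3:**
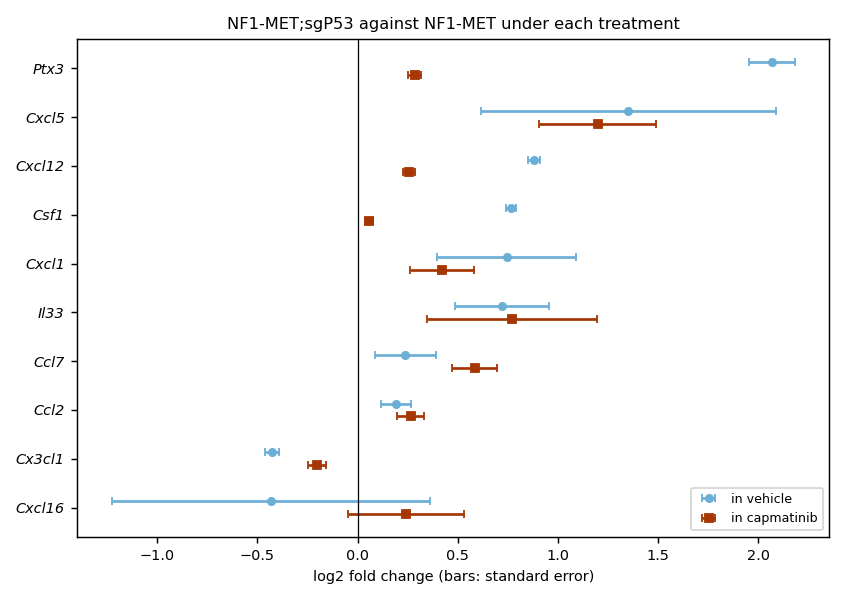
Log2 fold change of NF1-MET;sgP53 against NF1-MET (horizontal axis) for each gene in vehicle (circles) and in capmatinib (squares), with standard errors as bars. *Ptx3*, *Cxcl12* and *Csf1* lie further from 0 in vehicle (2.07, 0.88 and 0.76) than in capmatinib (0.29, 0.26 and 0.06), and the wide bars belong to genes with few counts.

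The interaction of line and capmatinib asks whether the response itself differed between the lines. Of the 8 genes tested, 2 were called, where 9.71% of all genes were called in either direction. The response of *Cxcl12* was smaller in NF1-MET;sgP53 (log2 difference -0.64 ± 0.04, edgeR adjusted p = 3.11e-11) and remained called under every alternative run. The fall of *Cx3cl1* was smaller in NF1-MET;sgP53 (0.20 ± 0.06, edgeR adjusted p = 0.0235), and this call was lost without NF1-MET vehicle replicate 1 (0.19 ± 0.06), NF1-MET capmatinib replicate 2 (0.18 ± 0.06), NF1-MET;sgP53 vehicle replicate 2 (0.17 ± 0.06) or NF1-MET;sgP53 capmatinib replicate 2 (0.20 ± 0.06), with library totals (0.28 ± 0.12) and in DESeq2 (adjusted p = 0.0928). The differences of *Ccl2* (0.05 ± 0.10), *Ccl7* (0.33 ± 0.19), *Cxcl1* (-0.33 ± 0.37), *Cxcl5* (-0.17 ± 0.73), *Cxcl16* (0.65 ± 0.83) and *Il33* (0.04 ± 0.43) did not pass the test, and for the last 4 the standard errors leave sizeable differences undetected. Single NF1-MET;sgP53 vehicle libraries moved these values, from 1.35 without replicate 1 to 0.10 without replicate 2 for *Cxcl16*, and from -0.02 to -0.64 in the same order for *Cxcl1*.

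Receptors for these ligands were mostly absent or low, with *Il1rl1*, its co-receptor gene *Il1rap* (105 to 125 CPM) and *Ackr3* as exceptions. Of 15 receptor genes, 7 were tested, of which 2 were higher and 4 lower with capmatinib in NF1-MET and 2 higher and 3 lower in NF1-MET;sgP53. Over all genes 35.5% were called higher and 34.7% lower in the first line and 34.2% and 33.4% in the second. *Cxcr4* and *Ccr1*, both among those lower, reached 10 counts only in vehicle libraries and so had to differ to be tested. *Cxcr4*, the signaling receptor of CXCL12, had 42 and 45 counts in NF1-MET vehicle and 1 in each NF1-MET capmatinib library, and 11 and 13 against 0 and 1 in NF1-MET;sgP53. From the summed counts it was 37.7 times as high in vehicle as in capmatinib in NF1-MET (95% exact interval 10.1 to 316.5) and 22.3 times in NF1-MET;sgP53 (3.63 to 916). *Ackr3*, which scavenges CXCL12, stayed between 44.9 and 57.1 CPM in all libraries, with a log2 fold change for capmatinib of -0.28 ± 0.04 in NF1-MET (edgeR adjusted p = 1.99e-07) and 0.00 ± 0.04 after rounding in NF1-MET;sgP53. *Ccr1*, a receptor of CCL7, was also lower with capmatinib, by 14.7 times in NF1-MET (95% exact interval 4.77 to 73.9) and 12.4 times in NF1-MET;sgP53 (3.94 to 62.5).

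*Il1rl1*, the IL-33 receptor, was at 244 to 391 CPM although its ligand gene was at most 1.97 CPM. It was at 258 and 244 CPM in NF1-MET vehicle, 279.5 and 275 in NF1-MET capmatinib and, in NF1-MET;sgP53, 391 and 381 with vehicle and 297 and 278 with capmatinib. The capmatinib groups of the lines overlapped, and NF1-MET;sgP53 vehicle stood above all others. *Il1rl1* rose with capmatinib in NF1-MET (log2 fold change 0.13 ± 0.03, edgeR adjusted p = 6.37e-05) and fell in NF1-MET;sgP53 (-0.43 ± 0.03, edgeR adjusted p = 1.09e-10), and this difference passed the test itself (-0.57 ± 0.04, edgeR adjusted p = 1.89e-09). With library totals the value in NF1-MET turned to -0.06 ± 0.06, without a call, and *Il1rl1* was among the genes whose deviations within groups moved with those of *Gm42418*. Gene counts do not separate its membrane-bound from its soluble product. *Csf1r*, the CSF1 receptor and itself a macrophage marker, stayed between 0.193 and 0.940 CPM, from 7 to 30 counts in each library, while *Csf1* was at 299.6 CPM or more. It was higher with capmatinib in NF1-MET (1.88 ± 0.44, edgeR adjusted p = 0.000306) and, by 1.14 ± 0.41, in NF1-MET;sgP53 (edgeR adjusted p = 0.0168), where the call was lost without vehicle replicate 2 (0.66 ± 0.48), without capmatinib replicate 2 (1.05 ± 0.51) and in DESeq2 (adjusted p = 0.105). The CCR2 and CXCR2 genes, whose products bind the monocyte and neutrophil attractants, had at most 3 counts (*Ccr2*) and 0 counts (*Cxcr2*) in any library.

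**Figure D4:**
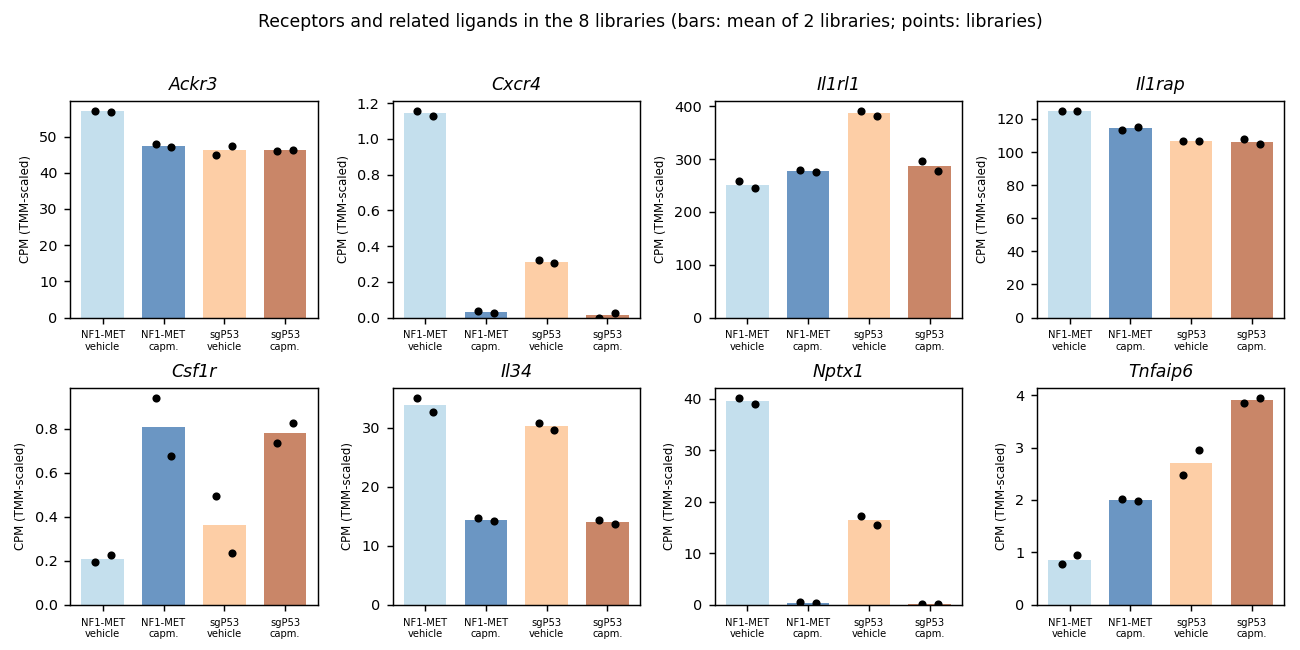
Expression of receptors and related ligands in TMM-scaled CPM (vertical axes, linear from 0) in the 4 groups (sgP53 is NF1-MET;sgP53 and capm. is capmatinib). Bars are means of 2 libraries and points are the libraries. *Nptx1* and *Cxcr4* were near 0 with capmatinib in both lines, *Il34* was lower with capmatinib in both, and *Il1rl1* was highest in NF1-MET;sgP53 vehicle.

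Related ligands did not move as one group. *Il34*, which encodes the other ligand of CSF1R, was at 32.6 to 35.0 CPM in NF1-MET vehicle and 14.1 to 14.7 in NF1-MET capmatinib, and fell in NF1-MET (log2 fold change -1.25 ± 0.06, edgeR adjusted p = 4.18e-18) and NF1-MET;sgP53 (-1.10 ± 0.06, edgeR adjusted p = 5.21e-13), opposite to *Csf1*. Of 5 other myeloid growth factor genes 3 were tested, and 1 was higher and 2 were lower with capmatinib in each line, beside all-gene shares of 34.2% to 35.5% higher and 33.4% to 34.7% lower. Of 7 genes for other pentraxins and the PTX3 partner TSG-6, 4 were tested, of which 1 was higher and 2 lower with capmatinib in NF1-MET and 1 higher and 3 lower in the derivative line, beside the same all-gene shares. *Nptx1*, a neuronal pentraxin, fell from 40.1 and 39.1 to 0.470 and 0.417 CPM in NF1-MET (log2 fold change -6.50 ± 0.12, edgeR adjusted p = 8.15e-30) and by 6.36 ± 0.18 on the log2 scale in NF1-MET;sgP53. *Nptxr*, which encodes the neuronal pentraxin receptor, fell by 0.45 ± 0.03 and 0.29 ± 0.03 in the same order (edgeR adjusted p = 2.35e-13 and 1.59e-07). *Nptx2*, another neuronal pentraxin gene, was not called in NF1-MET (-0.10 ± 0.11) and fell in the derivative line (-0.45 ± 0.07, edgeR adjusted p = 2.88e-06), where it was higher than in NF1-MET in vehicle (1.89 ± 0.08, edgeR adjusted p = 3.88e-13). *Tnfaip6*, which encodes TSG-6, rose in NF1-MET (1.19 ± 0.24, edgeR adjusted p = 7.10e-05) and NF1-MET;sgP53 (0.51 ± 0.15, edgeR adjusted p = 0.00492), but the second call was lost with library totals (0.39 ± 0.18) and in DESeq2 (adjusted p = 0.0593).

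Of 31 other chemokine genes, 6 were tested, and 2 were higher with capmatinib in NF1-MET and none lower, whereas 2 were higher and 2 lower in NF1-MET;sgP53. A count of 2 in 6 is near the share of all genes called in 1 direction, which was 33.4% to 35.5%. *Ccl9*, a macrophage attractant of mice, was at 2.81 and 2.38 CPM in NF1-MET vehicle, 8.60 and 9.22 in NF1-MET capmatinib and, in NF1-MET;sgP53, 4.42 and 4.26 with vehicle and 8.85 and 9.45 with capmatinib. As for *Cxcl12*, the lines lay apart in vehicle, and for *Ccl9* they overlapped in capmatinib, and its response differed between the lines (log2 difference -0.71 ± 0.16, edgeR adjusted p = 0.00530), a call lost without NF1-MET vehicle replicate 2 (-0.59 ± 0.19) and with library totals (-0.63 ± 0.20). *Cxcl10*, an interferon-inducible chemokine, did not pass the test for capmatinib but was higher in NF1-MET;sgP53 in vehicle (1.66 ± 0.29, edgeR adjusted p = 0.000194) and in capmatinib (1.86 ± 0.31, edgeR adjusted p = 0.000386). Among the genes for shedding, *Adam10* was at 231 to 274 CPM and *Adam17* at 59.1 to 72.2 CPM, and the 5 genes tested divided into 2 higher and 3 lower with capmatinib in each line, where 34.2% to 35.5% of all genes were higher and 33.4% to 34.7% lower. With library totals, none of these 5 was called higher and 3 were lower in each line, while 6381 of all 14496 genes were lower in NF1-MET and 4933 of 14497 in the derivative line.

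NF-κB subunits, inhibitors and targets were counted because several of the 10 genes are known targets. Of 18 genes listed, 17 were tested, and 12 were higher and 2 lower with capmatinib in NF1-MET, with a median log2 fold change of 0.43 beside 0.00 (rounded) for all genes, of which 35.5% were called higher and 34.7% lower. In NF1-MET;sgP53, 12 were higher and 1 lower, with a median of 0.54, where 34.2% and 33.4% of all genes were called. With library totals the counts were 10 higher and 4 lower in NF1-MET, where 3508 of all 14496 genes tested were higher and 6381 lower, and 9 higher and 1 lower in NF1-MET;sgP53, where 3260 and 4933 of 14497 were. *Tnfaip3*, which encodes the inhibitor A20, rose from 5.15 and 5.14 to 20.3 and 19.7 CPM in NF1-MET (log2 fold change 1.94 ± 0.08, edgeR adjusted p = 1.53e-19) and by 1.73 ± 0.09 on the log2 scale in NF1-MET;sgP53 (edgeR adjusted p = 8.39e-14). *Nfkbiz*, which encodes a nuclear cofactor of NF-κB, rose by 1.19 ± 0.06 and 1.31 ± 0.07 in the same order, whereas *Vcam1*, which encodes an adhesion molecule, fell in both lines (-0.94 ± 0.03 and -0.65 ± 0.03). *Nfkb1* and *Ikbkb* were not called in either line. For the interaction 1 of the 17 was called, where 9.71% of all genes were, and this was *Vcam1* (0.27 ± 0.04, edgeR adjusted p = 0.000116), and with library totals none was (*Vcam1* 0.35 ± 0.11, edgeR adjusted p = 0.0572). Of the 11 leukocyte markers, 2 were tested, and with capmatinib *Csf1r* was higher (1.88 and 1.14) and *Cd14* lower (-0.79 and -0.71) in each line. Their sum was 10.2 to 11.0 CPM in NF1-MET vehicle and 6.77 to 7.41 in NF1-MET capmatinib, and 7.49 to 7.88 and 5.28 to 6.04 in NF1-MET;sgP53, and the part of such cells in these values was not tested.

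**Figure D5:**
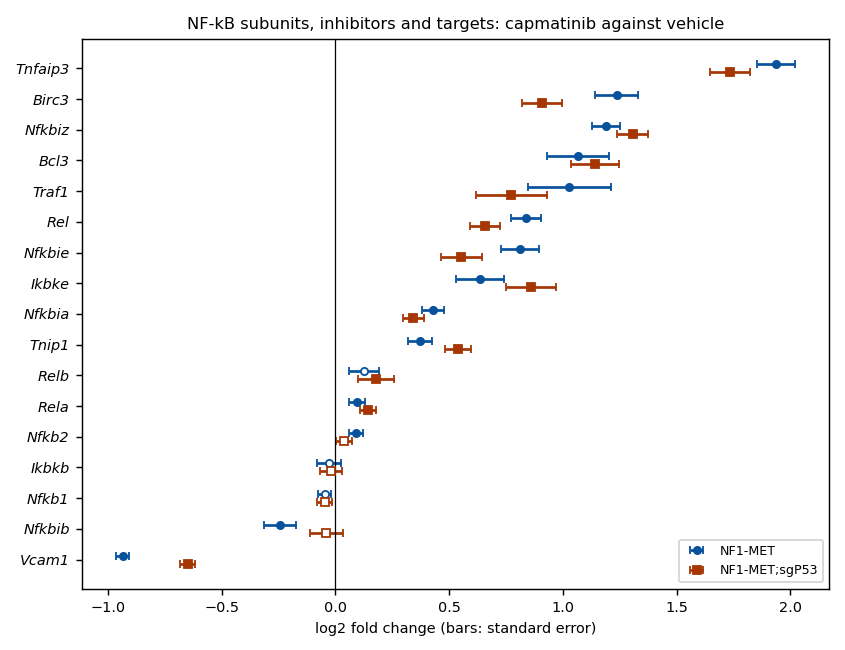
Log2 fold change of capmatinib against vehicle (horizontal axis) for 17 NF-κB genes in NF1-MET (circles) and NF1-MET;sgP53 (squares), with standard errors as bars. Filled symbols passed the edgeR test after adjustment and open symbols did not. *Tnfaip3* lies furthest to the right (1.94 and 1.73) and *Vcam1* furthest to the left (-0.94 and -0.65).

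The genes whose expression was most like that of *Csf1* and *Ptx3* were found by Pearson's r of log2 CPM over the 8 libraries, among 9066 genes whose mean reached 10 CPM in some group. For *Csf1* these were *Podnl1* (r = 0.9981), *Pde4d* (0.9973), *Cdc42* (0.9971), *Ankrd1* (0.9963) and *Tbl1x* (0.9954), and for *Ptx3* they included *Mmp16* (0.9999), *H6pd* (0.9992), *Ebf1* (0.9991) and *Zyx* (0.9991). *Mmp16* encodes a membrane-bound matrix metalloprotease and *Ankrd1* a cardiac ankyrin repeat protein. Such values were common, since 1321 genes had r above 0.9 with *Csf1* and 2310 with *Ptx3*, and all points share the same treatments and libraries. Among the 10 genes themselves r was 0.9877 between *Csf1* and *Cxcl12* and 0.9754 between *Csf1* and *Ptx3*, whereas *Cx3cl1* ran opposite to *Csf1* (r = -0.9774).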

How the data were processed

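RNA-seq libraries of 4 groups with 2 replicates each were analysed. Per the labels and the methods of the study, poly(A) RNA gave paired-end reads that were demultiplexed with bcl2fastq 1.9.0, trimmed with Trim Galore 0.4.2, checked with FastQC 0.11.7 and mapped to mm10 with STAR 2.5.2b. The authors deposited the raw counts per gene that STAR gave, with no normalization, for 50600 genes. The annotation and strand setting are not given in the sources used here. Of the identifiers, 50376 were found in GENCODE M21, which gave exon lengths for RPKM.

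The filter kept 14497 genes that reached 10 counts in 2 or more of the 8 libraries, and a comparison further needed more than 0 counts in 2 of its own libraries. TMM factors (0.898 to 1.10), edgeR 4.0.16 quasi-likelihood tests in R 4.3.3 and Benjamini-Hochberg adjustment over all genes tested were used, with a threshold of 0.05. The 4 comparisons of single groups were fitted on their own 4 libraries, and the interaction and averages on all 8. The biological coefficient of variation was 2.34% to 4.28%, and replicates differed by more than sampling noise. The 10 genes and all lists were chosen with earlier results of these data known. The named genes are the 10, the genes of the lists, *Trp53*, and the 5 with the highest r with *Csf1* or *Ptx3*, 1 of which is not reported here, and *Gm42418* and *Zmynd15* were added after their values were seen. Alternatives were DESeq2 1.42.0 (size factors or Wald test), library totals, omission of *Gm42418* and genes moving with it, the bias-adjusted form of the test, no filter or a stricter one, a replicate block, 1 model of all libraries, and leaving out each library. The procedure was tested on simulated data. Counts of a list with capmatinib are given beside the share of all genes called, without a test of the list.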

Additional observations from a re-analysis of the deposited data

Results flagged for a closer look

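For *Cxcl12*, the response to capmatinib differed between the lines by -0.64 on the log2 scale, with mean levels of 115 and 274 CPM in NF1-MET and 215 and 327 CPM in NF1-MET;sgP53 (vehicle and capmatinib). It was singled out because the difference between the effects in the lines passed its own test. For *Cx3cl1* the same difference was 0.20, with mean levels of 73.0 and 44.7 CPM in NF1-MET and 55.1 and 38.7 CPM in NF1-MET;sgP53. This call did not hold in 4 of the 8 fits with a library left out. Whether *Gm42418* or depth had a part in either was not tested beyond the alternatives given.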

How the results depend on the processing

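Of 986 recomputed values of the 10 genes, 934 kept direction and side of the threshold or moved within their standard error. Another 9, of *Csf1* or *Ptx3*, moved further. The averages of *Csf1* and *Ptx3* were sorted only by direction and side of the threshold, so shifts beyond their standard error are not counted. Of the remaining values, 30 lost a call, 3 gained one and 10 changed sign, the last all uncalled. The sign changes came with a library left out, where the ranges were -0.0071 to 0.13 for the *Ccl2* interaction, -0.79 to 0.64 for *Cxcl5*, -0.30 to 0.32 for *Il33*, and for *Cxcl16* between the lines -1.13 to 0.12 in vehicle and -0.43 to 0.19 on average. With 1 library left in a group, that library is assumed to vary like the others.

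The interaction called 2 of the 8 tested genes, against 1 in DESeq2, 1 with library totals and 1 to 2 with a library left out. Between the lines in capmatinib 5 were called, against 2 in DESeq2. Over the whole table DESeq2 called 1940 genes between the lines in vehicle, 870 in capmatinib and 894 for the interaction (3355, 1778 and 1407 in edgeR), and library totals gave 2023, 666 and 315. The cause of these differences was not tested. The replicate numbers are shared between groups, and deviations of same-numbered libraries correlated at -0.13 to 0.38. They were 0.25 to 0.38 among NF1-MET vehicle and both NF1-MET;sgP53 groups, and -0.13 to -0.01 between NF1-MET capmatinib and the others. The labels state no pairing, and none was used in the main fits. With a replicate block the interaction called 2 of the 8 genes and 1524 in all, and no call of the 10 genes changed. By Spearman's rho the genes nearest to *Csf1* had 0.88 to 0.95 and those named for *Ptx3* 0.93 to 1. Low counts limit *Cxcl5*, *Cxcl16* and *Il33*.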
